A study of Homo sapiens with 40 samples.

Results

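The COP9 signalosome is a protein complex that removes the ubiquitin-like protein NEDD8 from cullins, the scaffolds of the cullin-RING ubiquitin ligases. Cullins are switched on by attachment of NEDD8 and returned to the unmodified state by the signalosome, so the complex acts on the turnover of many proteins, cell cycle regulators among them. It is built from subunits with a PCI domain, which form the frame, and subunits with an MPN domain, one of which is the NEDD8-cleaving metalloprotease. The 9 genes described here encode these subunits: GPS1 (also called CSN1), COPS2, COPS3, COPS4, COPS5, COPS6, COPS7A, COPS7B and COPS8, out of 60279 genes listed in the count tables. They were selected on 1 measured value, the count of 0 reads for GPS1 in the NEB cells, to ask whether its partners in the complex were read there. The NEB values of GPS1 therefore chose the genes and are given as a description only, and the question rests on the 8 partners.

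The counts came from single cells of T47D, a human cell line from a luminal breast tumour, at passage 10 and given no treatment. The cells had been sorted as positive for the surface proteins EpCAM and CD49f. Full-length mRNA libraries were made with 3 protocols: genome and transcriptome sequencing (G&T), which separates mRNA from DNA on beads, the SMART-seq HT kit (Takara), and the NEBNext Single Cell/Low Input kit (NEB). The tables hold 13 cells each for G&T and Takara and 14 for NEB, of which 11 per protocol were kept after quality control. A protocol was run on 1 plate in 1 sequencing run and its cells are not replicates of it. What belongs to the protocol and what to the run cannot be told apart, and no test between protocols was made.

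Kept libraries held 672328 to 1192383 reads in G&T, 827663 to 1297218 in Takara and 720899 to 1021613 in NEB, on genes and ERCC spike-ins. The median G&T cell had 11253 genes, the median Takara cell 10983 and the median NEB cell 5161, and ERCC spike-ins took 5.66% to 18.9% of NEB libraries against at most 2.75% elsewhere. The luminal markers KRT8, KRT18, KRT19, GATA3, ESR1 and PGR had reads in all 11 kept cells of each protocol, and EPCAM in 11, 11 and 10. XBP1, also a luminal marker, was listed at 0 throughout. The reason was not tested, and this 0 does not show that the cells lack XBP1. Of 9 markers of other cell types, COL1A1 reached 12.6 CPM and the others at most 2.38 CPM.

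The subunit transcripts differ widely in base composition, which turned out to run alongside their ratios of NEB to Takara and G&T. The last 120 coding bases before the stop codon are printed here for 6 subunits, with G and C in capitals, to show that difference. They were read 5′ to 3′ on the gene's strand from GRCh38 with the canonical transcripts of GENCODE release 44. GPS1 lies at chr17:82056927-82057124 (plus strand), COPS7A at chr12:6730738-6731036 (plus) and COPS7B at chr2:231807523-231807642 (plus), and these are the subunits with few or no NEB reads. COPS6 lies at chr7:100091667-100091786 (plus), COPS4 at chr4:83075308-83075427 (plus) and COPS2 at chr15:49127953-49128072 (minus), and these were read in NEB. The stretches of GPS1 and COPS7A run across an intron, which is left out, and the others lie in 1 exon.
GPS1: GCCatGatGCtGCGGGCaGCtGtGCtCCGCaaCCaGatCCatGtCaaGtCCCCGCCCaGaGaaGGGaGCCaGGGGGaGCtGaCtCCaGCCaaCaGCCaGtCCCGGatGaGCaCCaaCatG
COPS7A: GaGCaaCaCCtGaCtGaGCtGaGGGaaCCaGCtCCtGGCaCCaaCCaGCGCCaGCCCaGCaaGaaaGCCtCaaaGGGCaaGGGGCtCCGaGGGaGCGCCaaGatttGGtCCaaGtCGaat
COPS7B: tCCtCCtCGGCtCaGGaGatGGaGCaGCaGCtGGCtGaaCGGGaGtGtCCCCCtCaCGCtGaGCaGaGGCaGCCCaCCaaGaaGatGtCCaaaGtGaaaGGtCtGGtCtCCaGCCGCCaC
COPS6: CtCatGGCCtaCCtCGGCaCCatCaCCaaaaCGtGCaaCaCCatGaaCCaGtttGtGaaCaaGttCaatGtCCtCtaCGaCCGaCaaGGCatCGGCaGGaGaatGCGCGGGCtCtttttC
COPS4: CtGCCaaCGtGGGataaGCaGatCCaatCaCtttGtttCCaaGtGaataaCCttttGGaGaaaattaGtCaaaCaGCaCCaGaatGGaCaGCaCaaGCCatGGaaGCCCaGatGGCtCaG
COPS2: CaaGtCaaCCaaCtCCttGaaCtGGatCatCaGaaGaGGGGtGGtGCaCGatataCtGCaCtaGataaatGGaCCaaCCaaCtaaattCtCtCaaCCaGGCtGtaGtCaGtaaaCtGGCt
Of the 120 bases, 76 were G or C in GPS1, 72 in COPS7A and 74 in COPS7B. The count was 63 in COPS6, 55 in COPS4 and 54 in COPS2. Not every stretch split the subunits this way. In the last 300 bases of the transcript, COPS7B had a GC content of 42.7% and COPS7A a lower one. Both were below COPS6 at 50.7%, though above COPS2 at 32.7% and COPS4 at 31.3%, and GPS1 was highest at 66.3%. Over the whole canonical transcript, GPS1 had the highest GC content of the subunits at 61.7% (1841 bp), followed by COPS7A at 54.0%, COPS6 at 53.8% and COPS7B at 51.9%. The other subunits were at 43.98% (COPS5), 41.7% (COPS3), 40.9% (COPS4), 37.9% (COPS8) and 33.5% (COPS2, 6576 bp).

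GPS1 (ENSG00000169727; chromosome 17, 82050691 to 82057470) encodes a PCI subunit needed for assembly of the complex. Expression is given as CPM, reads per 1000000 reads on genes, either of single cells or of the 11 kept cells of a protocol pooled. In G&T every kept cell had GPS1 reads, between 50 and 187 with a median of 87, or 68.5 to 240 CPM with a median of 100. In Takara every kept cell had between 185 and 561 reads with a median of 374, or 216 to 518 CPM with a median of 343. In NEB none of the 11 kept cells, and none of the 3 removed wells, had a GPS1 read. Pooled, G&T was at 128 CPM (120 to 135, the 95% Poisson interval, as in brackets after other pooled levels and folds) and Takara at 374 CPM (363 to 385), and the absence of a read in NEB allows up to 0.376 CPM at 3 reads. Against that limit, GPS1 was at least 993-fold lower in NEB than in Takara and at least 339-fold lower than in G&T. The intervals and limits cover counting error only, since reads without molecular identifiers are not independent molecules. A share of 0 of 11 cells has a 95% exact binomial interval of up to 28.5%. The Takara level of GPS1 was 2.93-fold that of G&T (2.75 to 3.12), although the cells of the protocols overlapped. The removed G&T wells held 90 and 43 GPS1 reads, and the removed Takara wells, which were almost empty of gene reads, held none.

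GPS1 had no NEB read by choice. Of its 8 partners, 7 had a read in at least 1 kept NEB cell, and COPS7B had none. The background is that 5.94% of 7226 genes at 10 CPM or more in both G&T and Takara had no read in any kept NEB cell. That share was 16.4% among genes at 1 CPM or more and 0.983% among genes at 50 CPM or more. Ranked by Takara level among the 429 genes without a NEB read, GPS1 was at rank 2 and COPS7B at rank 131. By G&T level GPS1 was again at rank 2 and COPS7B at rank 203. COPS7B alone is too few to tell the partners apart from the background share. Cell by cell, the partners fell into a larger set that was read in most NEB cells and the COPS7 pair, which was almost or wholly missing. That grouping was made from the same reads.

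COPS7A and COPS7B encode alternative forms of the CSN7 subunit, a PCI protein at the edge of the frame, of which a complex holds one. COPS7B (chromosome 2, 231781671 to 231809254) had reads in 10 of 11 G&T cells, from 0 to 70 with a median of 13, and in all 11 Takara cells, from 22 to 104 with a median of 40. No NEB well, kept or removed, had a COPS7B read. Its pooled level was 21.3 CPM in G&T (18.4 to 24.4) and 47.9 CPM in Takara (44 to 52). Against the limit of 3 reads, NEB was at least 56.5-fold lower than G&T and at least 127-fold lower than Takara. These folds cover counting error only and not the spread between cells. A share of 0 of 11 cells has an interval of up to 28.5%, and COPS7A, read in 1 of 11 NEB cells, stood at 7.40 CPM. Per kb of exons COPS7B was the lowest of the subunits in G&T, and 35.8% of its summed cell CPM there came from 1 cell, G1.

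COPS7A (chromosome 12, 6724014 to 6731875) had reads in 10 of 11 G&T cells, at 0 to 182 CPM with a median of 44.8, and in all 11 Takara cells, at 34.6 to 164 CPM with a median of 69.6. In NEB 1 kept cell, A1, held all 59 reads (88.5 CPM in that cell), and the other 10 held none. The removed NEB well B2 held 17 more. The pooled level was 50.3 CPM in G&T, 92.3 CPM in Takara and 7.40 CPM in NEB (5.63 to 9.54), or 12.5-fold lower in NEB than in Takara (9.60 to 16.5). Without cell A1 the NEB level of COPS7A was 0 and the number of subunits with NEB reads was 6. A read for either form of CSN7 was present in all 11 cells of G&T and of Takara, with both forms in 9 and 11 of them, and in 1 of 11 NEB cells.

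**Figure D1:**
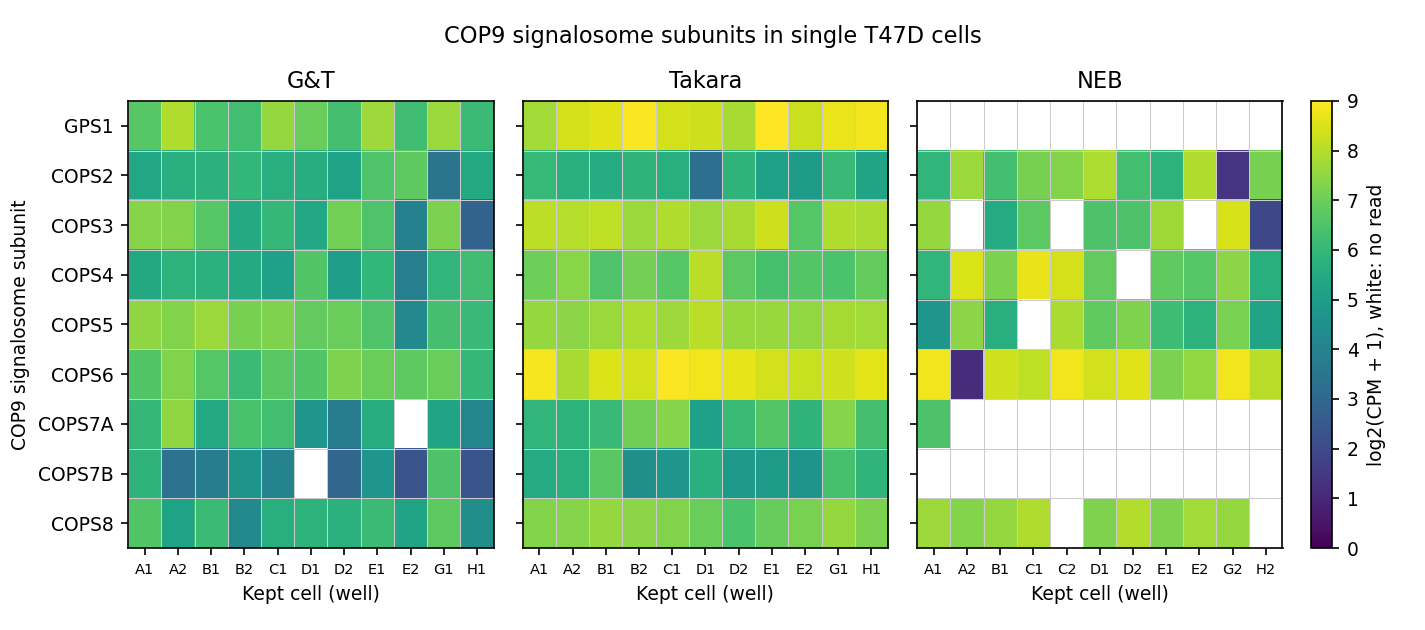
Expression of each subunit (rows) in each kept cell (columns, named by plate well) of the 3 protocols, coloured by log2(CPM + 1) with white for no read. GPS1 and COPS7B were white in all 11 NEB cells and COPS7A in 10 of them, while Takara had a read for all 9 subunits in each of its 11 cells.

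The catalytic pair was read in nearly all NEB cells. COPS5 (chromosome 8, 67043079 to 67083783) encodes the metalloprotease that cleaves NEDD8 from cullins. Across cells it ran between 17.8 and 199 CPM in G&T (median 123), 173 and 268 CPM in Takara (median 198), and 0 and 230 CPM in NEB (median 72.8). A read was present in all G&T and Takara cells and in 10 of 11 NEB cells. Takara held COPS5 most evenly, with a coefficient of variation of 12.9% across cells against 44.4% in G&T and 75.3% in NEB. The pooled NEB level of 97.3 CPM (90.6 to 104) was 2.14-fold below the 209 CPM of Takara (1.98 to 2.33) and 0.814 times the 120 CPM of G&T (0.742 to 0.892). This gap to Takara sat at the edge of 2-fold: its log2 ratio of -1.09 became -0.97 without NEB cell C1 and -0.999 without NEB cell A1. With all deposited cells it was -0.38, and the ratio to G&T turned from -0.29 to 0.43.

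COPS6 (chromosome 7, 100088969 to 100092187) encodes the MPN partner of COPS5, which has no protease activity of its own. It was read in all 33 kept cells and, per kb of exons, was the highest subunit in each protocol. Cells ranged from 63.3 to 156 CPM in G&T (median 103), from 225 to 488 in Takara (median 369) and from 1.26 to 448 in NEB (median 324). The NEB cell at 1.26 CPM, A2, held 1 COPS6 read, and the next lowest NEB cell was at 150 CPM. Pooled, COPS6 was at 371 CPM in Takara (360 to 383), 291 CPM in NEB (279 to 303) and 109 CPM in G&T (103 to 116). Takara was 3.41-fold above G&T (3.18 to 3.65) with no overlap between their cells, which held for COPS6 alone among the subunits.

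The other PCI subunits were each read in 8 or more NEB cells. COPS2 (chromosome 15, 49106068 to 49155661), which helps to hold the cullin-RING ligase, was the one subunit at least 2-fold higher in NEB than in Takara. Its cells ranged from 10.1 to 107 CPM in G&T (median 49.8), from 8.88 to 66.5 in Takara (median 49.7) and from 1.60 to 241 in NEB (median 141). Pooled, COPS2 was at 53.4 CPM in G&T, 45.4 CPM in Takara and 134 CPM in NEB, or 2.95-fold higher in NEB than in Takara (2.66 to 3.28) and 2.51-fold higher than in G&T (2.26 to 2.80). The mean NEB and Takara cells differed by 81.0 CPM, just over the larger SD of 78.8 CPM (NEB, n = 11 cells), and the cells overlapped.

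COPS3 (chromosome 17, 17246616 to 17281273) was read in all G&T and Takara cells and in 8 NEB cells, the fewest for a PCI subunit outside the COPS7 pair and GPS1. Across cells it ran between 6.22 and 164 CPM in G&T (median 89.8), 97.6 and 315 CPM in Takara (median 245), and 0 and 354 CPM in NEB (median 88.2). A single NEB cell, G2, supplied 32.7% of the summed NEB cell CPM of COPS3. The pooled level of 92.9 CPM in NEB was 2.53-fold below the 235 CPM of Takara (2.33 to 2.74) and lay beside the 87.9 CPM of G&T, where the sign of the log2 ratio, 0.08, turned to -0.31 without that cell and also turned when scaled to nuclear genes or with ERCC reads.

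COPS4 and COPS8 showed a like pattern across the protocols, with NEB near Takara and G&T below both. COPS4 (chromosome 4, 83034447 to 83075818) was read in 10 NEB cells and ranged from 13.6 to 93.0 CPM in G&T (median 52.7), from 83.0 to 269 in Takara (median 105) and from 0 to 412 in NEB (median 112). Its pooled level was 49.4 CPM in G&T, 126 CPM in Takara and 170 CPM in NEB, a NEB level 3.43-fold above G&T (3.09 to 3.82). COPS8 (chromosome 2, 237085882 to 237100474), the smallest PCI subunit, was read in 9 NEB cells and ranged from 18.2 to 109 CPM in G&T (median 52.3), from 86.7 to 189 in Takara (median 155) and from 0 to 251 in NEB (median 189). Pooled, COPS8 was at 55.3 CPM in G&T, 152 CPM in Takara and 157 CPM in NEB, with a NEB to Takara ratio of 1.04 (0.963 to 1.11). Among NEB cells, 9 held COPS8 at 151 CPM or more and 2 had no read of it.

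COPS9, a small later-described subunit outside the 9 genes, was read in 11, 11 and 10 cells at 262 CPM in G&T, 146 CPM in Takara and 82.3 CPM in NEB. Unlike most subunits, it stood higher in G&T than in Takara, by 1.79-fold (1.68 to 1.90), although G&T cells ran from 44.98 to 896 CPM.

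**Figure D2:**
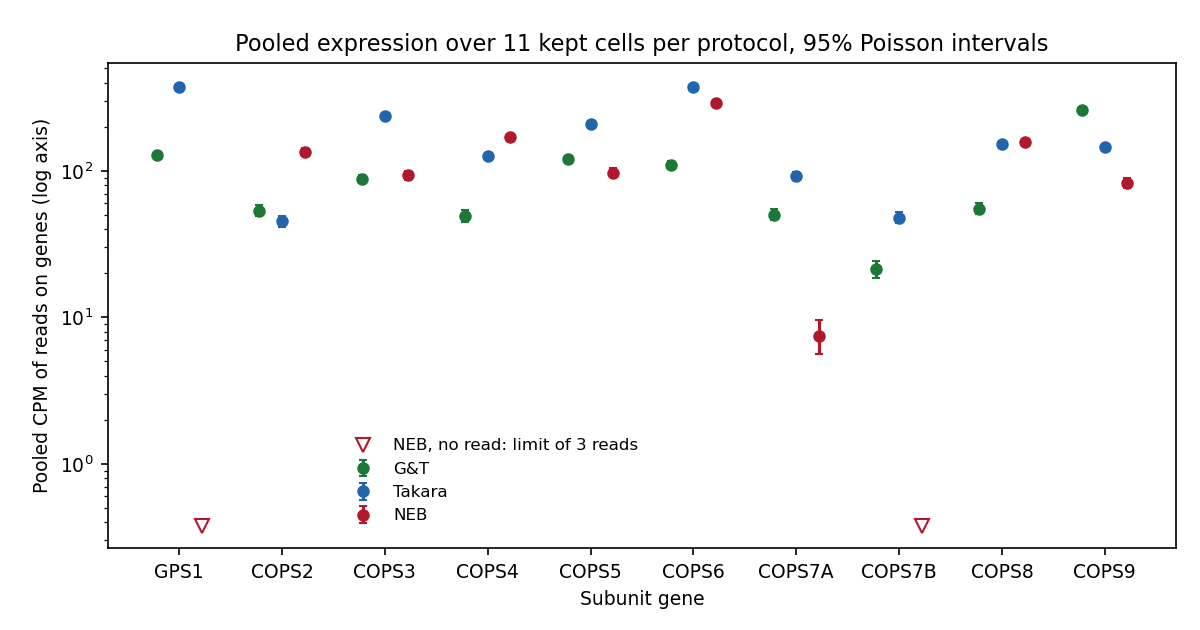
Pooled expression in CPM (log axis) of the 9 subunits and COPS9 in G&T, Takara and NEB, with 95% Poisson intervals for counting error over 11 kept cells per protocol. The open triangles mark the NEB limit of 0.376 CPM for GPS1 and COPS7B, which had no NEB read; COPS7A in NEB sits at 7.40 CPM and the other NEB points at 82.3 CPM or above.

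Counted per cell, Takara held a read for all 9 subunits in every kept cell (9 ± 0, SD, n = 11 cells of 1 run). G&T held 8.82 ± 0.405 (8 to 9) and NEB 5.45 ± 0.820 (4 to 7, median 5). As a share of all pairs of subunit and cell, NEB had a read in 60.6%, G&T in 98.0% and Takara in 100%. Without GPS1, which is missing from NEB by choice, the 8 partners had a read in 60 of 88 NEB pairs (68.2%), 86 G&T pairs (97.7%) and 88 Takara pairs. Over the 7226 genes at 10 CPM or more in G&T and Takara, the mean share per cell was 55.5%, 95.5% and 97.6% in that order. Within the NEB cells the reads were not spread evenly over the subunits. COPS2, COPS3, COPS4, COPS5, COPS6 and COPS8 had reads in 59 of 66 pairs of subunit and cell, with all 6 in 5 cells and at most 2 missing in any cell. Some of these pairs rest on very few reads: COPS6 in A2 and COPS2 in G2 on 1 each, and COPS3 in H2 on 2. GPS1, COPS7A and COPS7B together had a read in a single NEB cell. The 6 were grouped for having reads in more than 1 NEB cell, and GPS1 was chosen for having none. These shares thus follow in part from the grouping. Over the 7226 genes, the median was 6 NEB cells with a read. All 9 subunits were read together in 11 Takara cells, 9 G&T cells and 0 NEB cells.

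Summed over the 9 subunits, cells lay between 366 and 1041 CPM in G&T (median 718), 1242 and 1801 CPM in Takara (median 1727), and 494 and 1306 CPM in NEB (median 948). The median Takara cell lay above each NEB cell, though the lowest Takara cell lay below the highest NEB cell. G&T and NEB cells overlapped widely. GPS1, chosen for its lack of NEB reads, is in these sums, so part of the gap from NEB to Takara follows from that choice. From cell to cell, correlations between subunits had low medians and a wide spread. Over pairs of subunits, the median Spearman correlation of CPM across the 11 NEB cells was -0.03 (15 pairs, -0.82 to 0.29). These pairs are of the 6 subunits read in more than 1 NEB cell. In Takara the median was 0.12 (36 pairs, -0.55 to 0.54) and in G&T 0.18 (36 pairs, -0.45 to 0.66). These correlations share libraries and depth and are a description.

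Between NEB and Takara, 5 of the 9 subunits were at least 2-fold lower in NEB (GPS1, COPS3, COPS5, COPS7A and COPS7B) and 1 was at least 2-fold higher (COPS2). Over 8955 genes at 10 CPM or more in either protocol, 40.3% were lower and 25.6% higher by that rule. The log2 ratios, on pooled CPM with 1 CPM added, ran from -8.55 for GPS1 to 1.54 for COPS2, with a median of -1.09 against -0.38 over all these genes. The cells of NEB and Takara did not overlap for GPS1 and COPS7B, against 14.6% of genes. GPS1 is in each of these counts by choice. Over the 8 partners alone, 4 were lower and 1 higher, and the median log2 ratio was -0.72.

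Between NEB and G&T, 3 subunits were at least 2-fold lower in NEB (GPS1, COPS7A and COPS7B), against 39.6% of 9119 genes, and 4 were higher (COPS2, COPS4, COPS6 and COPS8), against 23.0%. The median log2 ratio of the subunits was 0.08, against -0.38 over all these genes. Over the 8 partners, 2 were lower and 4 higher, with a median of 0.70. COPS4 was highest at 1.76 and COPS7B, next to GPS1 at -7.01, was lowest at -4.48. Cells did not overlap for GPS1 only, against 6.82% of genes. For COPS6 the mean cells differed by 188 CPM against a larger SD of 140 CPM, and for COPS8 by 104 CPM against 85.5 CPM. For COPS2 and COPS4 the differences of 73.1 and 118 CPM stayed within the NEB SD of 78.8 and 138 CPM.

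Between G&T and Takara, whose ratio did not choose the genes, 6 subunits were at least 2-fold lower in G&T and 0 higher. The share over 9060 genes was 20.4% lower and 19.0% higher. The lower subunits were COPS6 (log2 ratio -1.76), GPS1 (-1.54), COPS8 (-1.44), COPS3 (-1.41), COPS4 (-1.34) and COPS7B (-1.13), and the median of the 9 was -1.34 against -0.09 over all genes. The 8 partners, of which 5 were lower, had a median of -1.24. COPS7A (-0.86) and COPS5 (-0.80) leaned the same way below 2-fold, and COPS2 stood apart at 0.23. Leaving out G&T cell A2 took COPS7A to -1.23, and leaving out Takara cell B1 took COPS7B to -0.98. The cells overlapped for every subunit but COPS6, against 3.10% of genes without overlap. The mean G&T cell minus the mean Takara cell was beyond the larger SD for COPS6 (-263 CPM, SD 77.7), GPS1 (-235, SD 100), COPS3 (-146, SD 58.1), COPS8 (-94.6, SD 31.03), COPS5 (-87.5, SD 53.2) and COPS4 (-74.5, SD 54.02).

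Set on a per-length scale, pooled CPM per kb of exons, COPS6 led in all protocols with 134 for Takara, 105 for NEB and 39.2 for G&T. COPS3 and GPS1 followed in G&T (29.6 and 20.8) and in Takara (79.0 and 60.8), while in NEB COPS4 (47.5) and COPS8 (37.6) came next. The lowest subunit was COPS7B in G&T (3.51), COPS2 in Takara (6.05) and, of those read, COPS7A in NEB (2.61). From highest to lowest the range was 40.2-fold in NEB, 22.1-fold in Takara and 11.2-fold in G&T. The NEB range fell to 7.48-fold, from COPS6 to COPS5, without cell A1, which held the COPS7A reads. COPS2 was thus ranked last of 9 in Takara and at rank 5 in NEB.

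Among the subunits, NEB ratios to Takara and G&T tended to fall with transcript GC content, a property looked at after the levels were known. Over the 8 partners the Spearman correlation between GC and the log2 ratio of NEB to Takara was -0.76, and over 7215 genes at 10 CPM or more in G&T and Takara it was -0.70. Against G&T the values were -0.57 and -0.67, and between G&T and Takara they were -0.14 and -0.24. With GPS1 added, the subunit values were -0.83, -0.70 and -0.37. These are correlations across genes of the same libraries and are a description, and the values with GPS1 rest in part on the choice, since it is the most GC-rich subunit and was chosen for its NEB value.

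**Figure D3:**
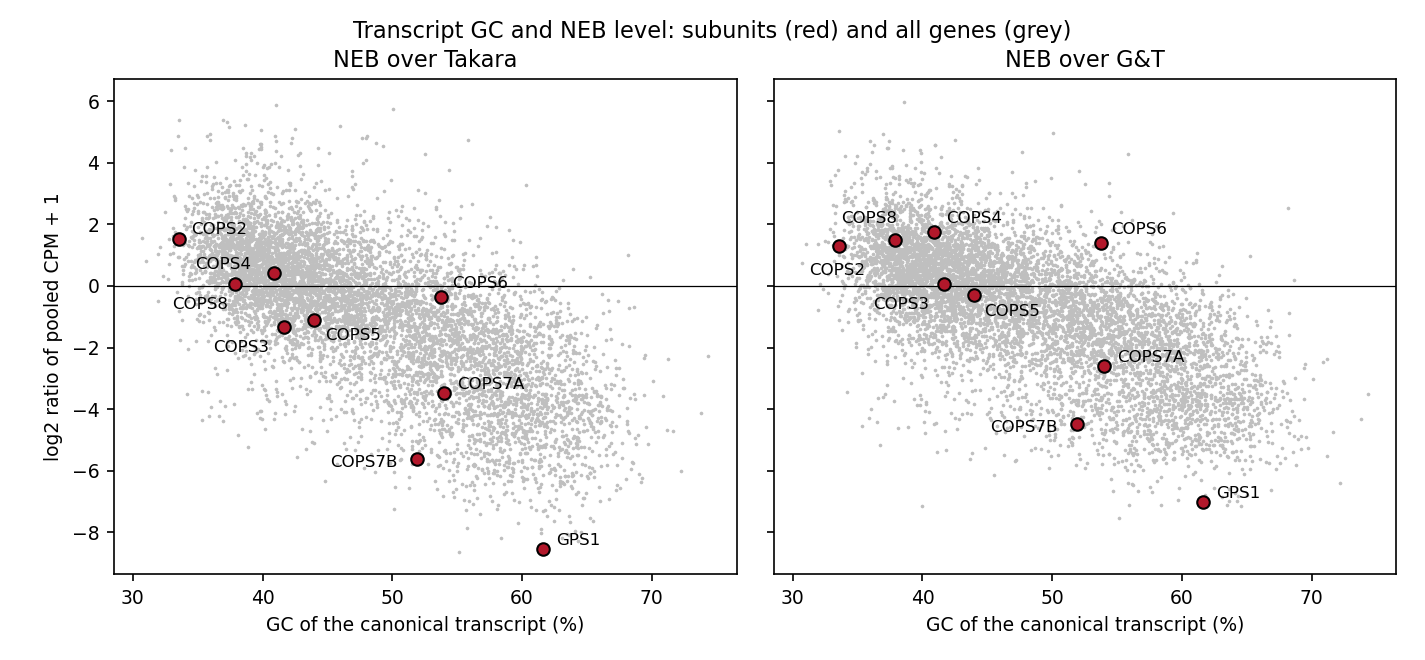
GC content of the canonical transcript (%) against the log2 ratio of pooled CPM + 1, NEB over Takara on the left and NEB over G&T on the right, for the 9 subunits (red) and other genes at 10 CPM or more in G&T and Takara (grey). GPS1, at 61.7% GC, lies lowest of the subunits at -8.55 and -7.01, and COPS2, at 33.5%, lies at 1.54 and 1.31.

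Genes without a NEB read were more frequent at high GC. They made up 0.554% of 1445 genes under 40% GC (8 genes), where COPS2 and COPS8 lie, and 0.787% of genes from 40% to 45%, where COPS3, COPS4 and COPS5 lie. The share was 6.28% from 50% to 55%, the range of COPS6, COPS7A and COPS7B, and 22.3% of 813 genes at 60% or more (181 genes), the range of GPS1. The median GC content of genes without a NEB read was 58.9%, against 46.2% with one. Subunits of near-equal GC still differed: from 50% to 55%, where the median log2 ratio of NEB to Takara was -1.61 with quartiles at -2.82 and -0.49, COPS6 stood at -0.35, COPS7A at -3.47 and COPS7B at -5.61. In the range from 40% to 45%, with a median of 0.23 and a lower quartile at -0.62, COPS3 (-1.33) and COPS5 (-1.09) were below that quartile. Whether GC content has a part in the missing reads of GPS1 and COPS7B was not tested.

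**Figure D4:**
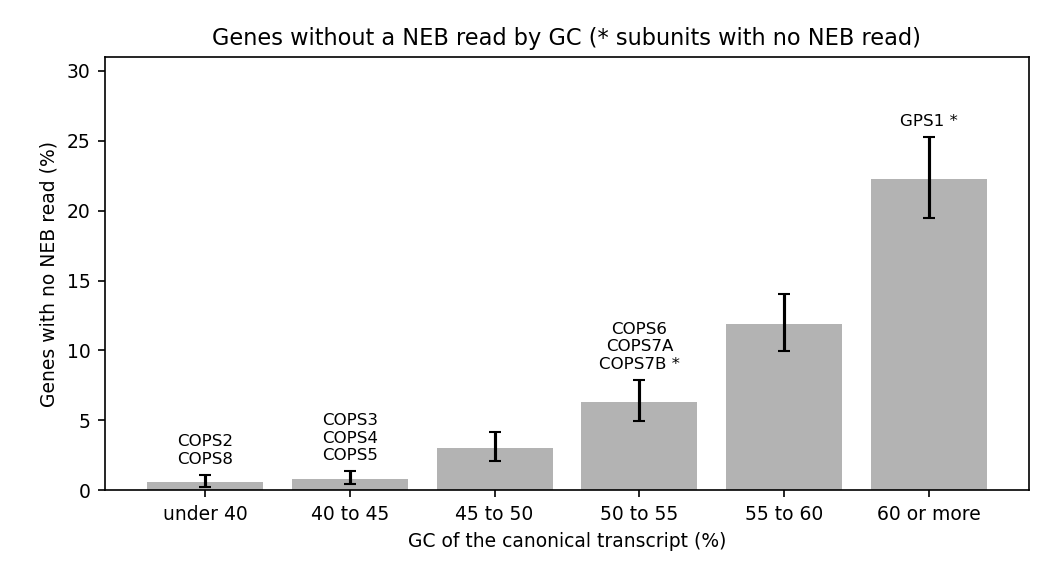
Share of genes with no read in any kept NEB cell (%, with 95% exact binomial intervals) by GC content of the canonical transcript, over genes at 10 CPM or more in G&T and Takara. Subunits are named above their range with an asterisk for those without a NEB read; the share rises from 0.554% under 40% GC to 22.3% at 60% or more.

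Genes with the G&T and Takara levels most like GPS1 and no read in kept NEB cells were ZDHHC12, C19orf48P, SLC39A7, CDK16 and HMG20B. Likeness is the mean absolute difference in log2(CPM + 1) from GPS1 over G&T and Takara, 0.23 for ZDHHC12 and 0.65 for HMG20B. ZDHHC12, a palmitoyltransferase gene, was at 113 CPM in G&T and 308 CPM in Takara. SLC39A7, a zinc transporter gene, was at 185 and 395 CPM and had 1 read in a removed NEB well. All 5 had reads in all 11 cells of G&T and Takara, and their transcripts had a GC content of 55.1% (SLC39A7) to 64.3% (ZDHHC12). Both traits go with the way the genes were picked, by level and by lack of a NEB read. The 429 genes without a NEB read had a median GC content of 58.9%.

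Some subunit exons overlap those of other genes, which could leave reads unassigned as ambiguous where counting ignores strand. GPS1 shares 835 bp, 13.6% of its exons, with RFNG on the opposite strand, and RFNG was at 11.4 CPM in G&T, 6.49 CPM in Takara and 3.01 CPM in NEB. The RFNG levels were far below those of GPS1 in G&T and Takara, and RFNG had reads in 2 NEB cells. Whether the overlap has a part in the missing GPS1 reads was not tested. COPS5 shares 382 bp with CSPP1 on the opposite strand, which was at 118 CPM in NEB, above COPS5 itself, and at 41.7 and 17.0 CPM in G&T and Takara. It also shares 198 bp with PPP1R42, which had at most 4 reads. COPS7B shares 72 bp with PDE6D, at 56.4 CPM in NEB, and 234 bp with the pseudogene RPL28P2, without reads, and COPS2 shares 6 bp with GALK2. Of the pseudogenes named after subunits, COPS8P2 had 3 Takara reads, and COPS5P1, COPS5P2, COPS8P1 and COPS8P3 had none.

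The 19S proteasome lid is built on the same plan as the signalosome, from PCI and MPN subunits that match it one by one. All 9 lid genes had NEB reads, as did 94.1% of the 7226 genes at 10 CPM or more in G&T and Takara. Of the lid genes 3 were at least 2-fold lower in NEB than in Takara and 4 higher, against 40.3% and 25.6% of genes, and their median log2 ratio was 0.98, against -0.72 for the 8 partners of GPS1 and -0.38 for all genes. The lowest were PSMD3 (-4.59, GC 58.5%) and PSMD8 (-2.20, 57.4%), the lid matches of COPS3 and COPS8, and the highest PSMD12 (1.78, 37.5%) and PSMD11 (1.46, 46.2%), the matches of COPS4 and COPS2. PSMD6, the lid match of GPS1, singled out after its values were seen, had reads in 10 NEB cells at 263 CPM, with 71.2 CPM in G&T and 118 CPM in Takara. The GC content of PSMD6 was 45.01%, against 61.7% for GPS1. PSMD13, the match of the COPS7 pair and likewise picked afterwards, had reads in 8 NEB cells at 80.1 CPM (GC 51.5%). Between G&T and Takara the lid median was -0.72, with 2 of 9 genes at least 2-fold lower in G&T, against 20.4% of all genes.

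The translation factor eIF3 is the other large complex with PCI and MPN subunits. All 8 of these eIF3 genes had NEB reads, near the 94.1% over all genes. With 3 lower and 2 higher than in Takara, their calls also lay near the shares of 40.3% and 25.6%, and the median log2 ratio was 0.10. EIF3C (-2.54) and EIF3F (-1.50) were lowest and EIF3E (1.31) and EIF3A (1.16) highest. EIF3C has a near-identical copy, EIF3CL, and reads that map to both could be left unassigned in any of the protocols. Whether this bears on the EIF3C ratio was not tested.

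The signalosome acts on cullins paired with a RING protein. Of 10 cullins and RING partners, 1 had no NEB read: CUL7, a scaffold of an atypical ligase, with 40.6 CPM in G&T, 26.8 CPM in Takara and a GC content of 59.4%. Of the 9 that reached 10 CPM in NEB or Takara, 2 were lower in NEB (CUL7 and RNF7, a RING partner, at -1.87) and 2 higher (CUL3 at 2.53 and CUL5 at 2.21), and the list median was 0.37, with 40.3% of all genes lower and 25.6% higher. Detection varied between cells: CUL4B had reads in 2 and CUL1 in 3 of 11 NEB cells, both named after their values were seen, and CUL5 in all 11. All 4 cullin adaptors had NEB reads, as did 94.1% of genes at 10 CPM or more in G&T and Takara. DDB1 was at -1.95, ELOB at -0.63, ELOC at 1.34 and SKP1 at 0.87.

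The NEDD8 cycle comprises NEDD8 itself, the enzymes that attach it, the DCUN1D co-factors, the protease SENP8 and the exchange factors CAND1 and CAND2. Of its 13 genes, CAND2 alone had no NEB read, but it had only 8 reads in Takara and none in G&T. Of the 9 genes at 10 CPM or more in NEB or Takara, 0 were lower in NEB by 2-fold and 4 were higher. The shares over all genes were 40.3% lower and 25.6% higher, and the list median was 0.07. DCUN1D1 (2.78) and DCUN1D4 (2.34) were highest. DCUN1D3 (-1.64) and UBE2M (-1.35), the NEDD8-conjugating enzyme, were lowest and both under 10 CPM in NEB and Takara. Against G&T the NEDD8 list had a median of 1.05, with 1 lower and 5 higher, against 39.6% and 23.0% of all genes.

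**Figure D5:**
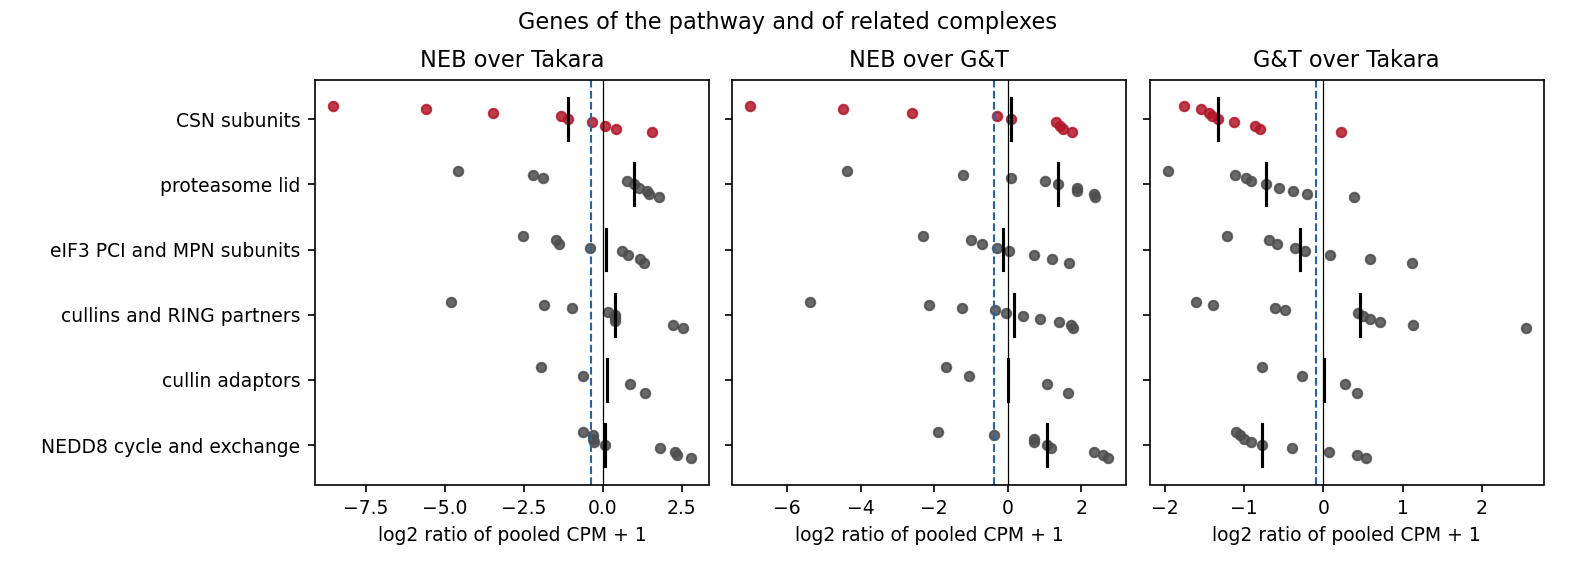
Log2 ratios of pooled CPM + 1 for the signalosome subunits (red) and 5 lists of related genes (grey) at 10 CPM or more in either protocol, with list medians (black bars) and the median of all genes (dashed line). For NEB over Takara the signalosome bar at -1.09 includes GPS1, which was chosen for its NEB value, and the 8 partners have a median of -0.72; the all-gene median is -0.38 and the other list medians lie between 0.07 and 0.98.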

How the data were processed

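Single T47D cells had been sorted and processed with G&T, Takara or NEB, with 1 plate and 1 sequencing run per protocol. SMART-Seq3 cells were not analysed here. The authors ran 2 rounds of Trim Galore, used STAR with GRCh38 for alignment, and deposited a table of raw read counts for each protocol, without normalization, filter or molecular identifiers. The annotation release and the strand setting of the counts are not given in the sources used here. Besides 60279 genes, a table lists 92 ERCC spike-ins, and 4 rows of unassigned reads that were left out.

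Kept cells had at least 1000 genes, a library of at least 600000 reads on genes and ERCC spike-ins, up to 30% of reads on mitochondrial genes and up to 25% on ERCC spike-ins. This removed wells C2 and F1 of G&T and of Takara, and B2, F1 and F2 of NEB. A gene counted as detected with at least 1 read. Pooled CPM sums the reads of the kept cells over 9500268 (G&T), 11716685 (Takara) and 7973692 (NEB) reads on genes. Ratios of pooled CPM had 1 CPM added before log2, and folds had none. Pooled levels have exact 95% Poisson intervals and shares exact binomial ones, and 0 reads were read as a limit of 3. Calls of 2-fold used genes at 10 CPM or more in either protocol. Each protocol counts as 1 sample, so no p-value was computed, and each SD or range is that of the cells of 1 run. The quasi-likelihood test of edgeR was not run for that reason.

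The 9 subunits and the lists of related genes were chosen with earlier results of these data known, and all 72 symbols matched. A further marker of another cell type is not reported here. Named genes were the subunits and COPS9, from each list the genes without a NEB read and the 2 largest ratios of NEB to Takara in each direction, the 5 genes most like GPS1, subunit pseudogenes and overlapping genes. GC content, lengths and sequences came from GENCODE release 44 on GRCh38, which may not be the authors' release. TMM factors, used as an alternative, came from edgeR 4.0.16 in R 4.3.3. Other steps used Python 3.11.15 with scipy 1.17.1, pandas 2.3.3, numpy 2.4.6 and, for plots, matplotlib 3.10.9. The fold calculation was tested on simulated data. Alternatives covered the cells kept, the reads that count as detection, depth, pooling, scaling, the pseudocount, the fold, the level a gene must reach and the length of a gene.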

Additional observations from a re-analysis of the deposited data

Results flagged for a closer look

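Wells removed by quality control hold subunit levels that no comparison uses, and 7 of these values lay above each kept cell of the same protocol. In NEB well B2 (629659 reads on genes and spike-ins, 2812 genes), COPS2 was at 1303 CPM (587 reads), COPS5 at 1209 CPM (545 reads) and COPS8 at 599 CPM (270 reads), where the highest kept cells were at 241, 230 and 251 CPM. COPS4 and COPS6 had no read in that well. In NEB well F2, COPS2 was at 247 CPM (136 reads) and COPS8 at 305 CPM (168 reads). In G&T well C2, COPS6 was at 285 CPM (201 reads) against 156 CPM in the highest kept cell, and in G&T well F1, COPS4 was at 97.7 CPM (57 reads) against 93.0 CPM.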

How the results depend on the processing

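No paired analysis was possible because no test was made: each protocol is 1 sample, and well names only name cells. The subunits with NEB reads stayed within 1.5 times of 7 under each alternative. With all deposited cells, which adds nearly empty wells, Takara held 7.77 subunits per cell, and 8.99999 when thinned to the smallest kept library. At a fold of 4, 3 subunits were lower in NEB than in Takara and 0 in G&T than in Takara. The share of all genes at a fold of 4 was not computed. The range per kb was 13.7-fold in G&T with all deposited cells, and with the longest transcript as length 38.3-fold in Takara and 57.0-fold in NEB.

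Leaving out 1 cell at a time gave 8.8 to 8.9 subunits per cell in G&T, 9 to 9 in Takara and 5.3 to 5.6 in NEB, and 6 to 7 subunits with NEB reads. It gave 4 to 5 subunits lower in NEB than in Takara, 3 to 3 lower than in G&T and 5 to 7 lower in G&T than in Takara. Ranges per kb were 9.64 to 15.5 in G&T, 19.9 to 23.8 in Takara and 7.48 to 40.2 in NEB. Of 216 subunit ratios under 8 other settings, 6 had another sign and 3 another side of 2-fold, and of 594 with 1 cell left out, 8 and 4. None of those with another sign was past 2-fold in the main values. COPS4 in G&T over Takara was at -0.98 by the median cell. Counting ERCC reads in the total moved the median of all genes by -0.16 for NEB over Takara and -0.14 for NEB over G&T, and COPS8 over Takara from 0.05 to -0.11. Counting nuclear genes alone moved NEB over G&T by -0.11. For GPS1 and COPS7B in NEB, the limit of 0.376 CPM covers counting error at the depth of these cells only. For each gene, 0 of 11 cells allows a share of up to 28.5% of cells with a read, so higher levels in other NEB cells are not excluded.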
